A study of Homo sapiens with 4 samples.

Results

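The clustered replication-dependent histone genes are the genes of the HIST1, HIST2, HIST3 and HIST4 families, and all genes whose symbol in the deposited transcript list begins with one of these family names were taken. The list holds 73 such genes, and 24 of them have a transcript with values, out of 15221 genes with values in all. Of these 24 genes, 22 are protein coding and 2, HIST2H2BA and HIST2H2BC, are transcribed pseudogenes. The other 49 listed genes have no row in the table of values and were not analysed here, so no level can be given for them. Each transcript with values reached at least 5.00 estimated counts in some library, with the scaling undone as described below. Whether the 49 genes fell below such a limit was not tested.

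RNA was sequenced from PANC-1, an established human pancreatic ductal adenocarcinoma cell line, and from PZT-2, a line made from PANC-1. PZT-2 is a clone, selected with puromycin after lentiviral transduction with short hairpin RNAs against the isoforms of the histone variant H2A.Z, while the PANC-1 cells used for comparison were not transduced. Both were grown in DMEM with fetal bovine serum, with 2 libraries from each, and a control line with a scrambled hairpin was not analysed here. The authors describe the libraries in their heatmap as 2 biological replicates. The labels do not say whether the 2 libraries of a line came from separate cultures, so p-values measure the spread between these libraries only. Clone, transduction and knockdown cannot be told apart.

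Core histones H2A, H2B, H3 and H4 wrap DNA into nucleosomes, and the linker histone H1 binds where the DNA enters and leaves. Most of their genes lie in clusters on chromosomes 6 and 1, are transcribed in S phase when new DNA must be packaged, and give mRNAs that end in a stem-loop in place of a poly(A) tail. The stem-loop binding protein SLBP holds this hairpin and brings in the cleavage machinery. Some clustered genes can also give a polyadenylated mRNA from a signal further downstream, mostly outside S phase. The libraries were made from bead-enriched mRNA with a stranded mRNA kit, so the values below describe the histone mRNA that passed this step, and the amount that did not was not measured.

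The hairpin is shown for 6 genes because it is the feature that sets these mRNAs apart from other mRNAs. A stem-loop of 16 bases with the histone consensus was found in the GENCODE 29 transcript model of 17 of the 24 genes with values. The models of the other 7, among them HIST1H1C, HIST1H2BK and HIST2H3D, hold no match, and several models stop at the end of the coding sequence. Those of HIST1H1C, HIST1H2BK and HIST2H3D have 642, 381 and 411 bases. Their open reading frames have 639, 378 and 408 bases without the stop codon. A stem-loop after the coding sequence could therefore not have been found in these models. Each line gives 26 bases, 5′ to 3′, with the stem-loop in capitals. On GRCh38 they lie in the 3′ untranslated part of the last exon, or of the first in HIST1H2AC, at chr1:149811880-149811905 on the minus strand (HIST2H2BF), chr6:26158582-26158607 on the plus strand (HIST1H2BD), chr6:26124664-26124689 on the plus strand (HIST1H2AC), chr1:149842218-149842243 on the minus strand (HIST2H2AA3), chr1:149833027-149833052 on the plus strand (HIST2H4A) and chr6:26285126-26285151 on the minus strand (HIST1H4H).
HIST2H2BF: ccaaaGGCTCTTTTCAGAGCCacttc
HIST1H2BD: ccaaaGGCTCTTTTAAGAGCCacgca
HIST1H2AC: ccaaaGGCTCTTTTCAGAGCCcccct
HIST2H2AA3: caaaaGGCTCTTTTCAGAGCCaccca
HIST2H4A: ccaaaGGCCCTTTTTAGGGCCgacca
HIST1H4H: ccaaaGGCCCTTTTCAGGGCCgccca

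The first 6 and last 6 bases of each hairpin pair with each other, and the loop holds 4 bases. The hairpin of HIST2H2BF, HIST1H2AC and HIST2H2AA3 was the most common form, with 10 of the 17 genes. The form of HIST1H2BD was shared by 2 genes, that of HIST2H4A by 2, and that of HIST1H4H was held by 1 gene with values.

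Recovered estimated counts came to between 12861242 and 15717444 per library. Of 8 ductal and epithelial markers, 5 were called lower in PZT-2 (KRT8, KRT18, KRT19, CDH1 and MUC1) and 1 higher (SOX9). The call of SOX9 was lost when PANC-1 replicate 2 or either PZT-2 library was dropped. That of MUC1 was lost when either PZT-2 library was dropped. The keratins KRT8, KRT18 and KRT19 stayed at normalized counts of at least 12383 in each library, while CDH1, which encodes E-cadherin, had 116 and 148 in PANC-1 and 0 and 18.8 in PZT-2. Of 3 mesenchymal markers, VIM, at 74717 or more in each library, and CDH2 were called lower. ZEB1 was fitted higher and not called (log2 fold change 0.71, SE 0.774, edgeR adjusted p = 0.543). Its estimated counts were 8 and 150 in PANC-1 and 121 and 127 in PZT-2, so the PANC-1 libraries lay on both sides. With 1 library left out, the fold change of ZEB1 ranged from -0.14 to 3.75. The part of these marker changes in the histone values was not tested. No acinar (PRSS1, CPA1, CELA3A) or endocrine marker (INS, GCG, CHGA) had values. Leukocyte, endothelial and fibroblast markers summed to at most 2.75, 0.236 and 11.9 TPM (a level relative to transcript length and library total) in any library. Among them COL1A1 was called lower, at 494 and 531 in PANC-1 and 170 and 135 in PZT-2 (log2 fold change -1.75, edgeR adjusted p = 0.000462). CD14, which reached 5 counts only in PZT-2, was called higher, at 3.38 and 0 against 16.1 and 31.6 (log2 fold change 3.86, edgeR adjusted p = 0.0236). PECAM1 and PDGFRB were not called. The knocked-down genes were lower in PZT-2. H2AFZ, which encodes H2A.Z.1, had normalized counts of 6389 and 6034 in PANC-1 and 2212 and 2259 in PZT-2 (log2 fold change -1.47, SE 0.0565, edgeR adjusted p = 6.32e-05). H2AFV, which encodes H2A.Z.2, had 3343 and 3452 against 2590 and 2719 (log2 fold change -0.36, SE 0.0569, adjusted p = 0.00576), a call that was lost when PZT-2 replicate 1 was left out (0.0672).

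How the clustered histone genes differed between the lines was asked gene by gene. Of the 24 genes, 22 reached 5 counts in 2 or more libraries and were tested, and HIST1H2AI and HIST1H2BO were not. Of these, 4 were lower in PZT-2 at an adjusted p under 0.05: HIST1H1C, HIST1H2BK, HIST2H3D and HIST2H2BF. None was called higher by edgeR's quasi-likelihood test, with 1 higher at an unadjusted p under 0.05, and DESeq2 called none in either direction. With PZT-2 replicate 1 or 2 dropped no clustered histone gene was called, although 4 were lower at an unadjusted p under 0.05 each time. HIST2H2BF reached the minimum of 5 counts only in PANC-1, where it is high, so that its call is in part fixed by the filter, and 3 of the 20 tested genes that did not pass through 1 line alone were called lower. The share called lower was 18.2% of the 22, against 13.7% of all 15101 genes tested, and the share called higher was 0 of 22, against 14.7%. In either direction 28.4% of all genes were called. Below a mean of 50 normalized counts, 2 of 17 histone genes were called lower, 1 of them HIST2H2BF, against 4.24% of all genes at that depth, and at 50 or more 2 of 5, against 16.97%. These shares rest on few genes and were not tested against each other. In bulk RNA, fewer cells that express a gene and less RNA per cell cannot be told apart.

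The fitted change was below 0 in 18 of the 22 tested genes, and in 49.8% of all genes. The median log2 fold change was -0.18 over the 22 genes and 0.0012 over all genes tested. It was smaller than the 0.193 by which the replicate libraries of a line differed over the same genes (SD of the median difference). It came to -0.38 with PANC-1 replicate 2 dropped, -0.065 with PZT-2 replicate 1 dropped and -0.46 with PZT-2 replicate 2 dropped. In 7 of the 22 genes both PZT-2 libraries were below both PANC-1 libraries, which held for 32.9% of all genes tested, and in 4 both were above, against 33.3%. HIST2H2AA3 and HIST2H2AA4 had the same values in each library, as did HIST2H4A and HIST2H4B, so these 4 genes are 2 measurements. With each pair taken once, 16 of 20 were fitted lower and the median was -0.24.

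**Figure D1:**
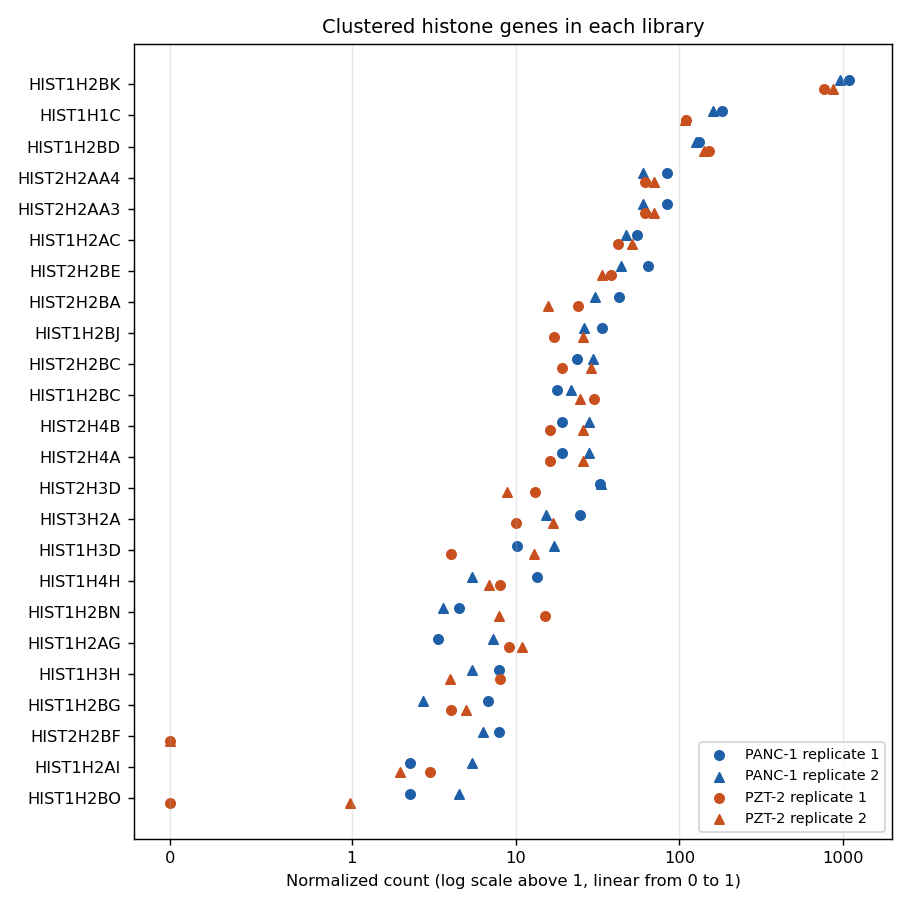
Normalized counts (horizontal axis, log scale above 1) of the 24 clustered histone genes with values, ordered by their mean, with circles and triangles for replicates 1 and 2. HIST1H2BK stands between 759 and 1093 in the 4 libraries, 19 of the 24 genes have a mean under 50, and HIST2H2BF is at 0 in both PZT-2 libraries.

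The levels of the genes spanned a wide range. Summed over the 24 genes, counts made up 0.0136% and 0.0122% of the PANC-1 libraries and 0.0101% and 0.0112% of the PZT-2 libraries. HIST1H2BK had the highest level, with a mean of 169 TPM, followed by HIST1H1C with 30.8, HIST1H2BD with 29.3, HIST2H2AA3 and HIST2H2AA4 with 23.2 each, HIST1H2AC with 15.99, HIST2H4A and HIST2H4B with 11.98 each, HIST1H2BC with 10.7 and HIST1H2BJ with 10.1 TPM. A mean level under 5 TPM was found for 10 genes, and the other 14 were at or above it. The replacement histone genes outside the clusters summed to between 2293 and 2868 TPM per library, and the 24 clustered genes with values to between 351 and 443 TPM.

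HIST1H1C, on the minus strand of chromosome 6 (26055740 to 26056470 in GRCh38.p14), encodes the linker histone H1.2. It was the only H1 gene of 6 listed that had values. Its normalized counts were 182 and 160 in PANC-1 and 110 and 108 in PZT-2. Both PZT-2 libraries were below both PANC-1 libraries, at 37.0 ± 2.40 TPM (SD, n = 2) in PANC-1 and 24.6 ± 0.355 TPM in PZT-2. The log2 fold change was -0.65 (SE 0.139, edgeR adjusted p = 0.0158). Leaving out 1 library kept the fold change between -0.75 and -0.56, but the adjusted p rose to 0.0818 or 0.0967 when replicate 1 or 2 of PZT-2 was dropped, and it was 0.0739 in DESeq2.

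H2B held the most genes with values, 11 of 20 listed, among them the pseudogenes HIST2H2BA and HIST2H2BC. Both are kept in the tested genes, the median and the sums of H2B. Of the 10 tested, 2 were called lower, HIST1H2BK and HIST2H2BF, and the median log2 fold change was -0.25. HIST1H2BK (chromosome 6, 27138293 to 27146858) encodes an H2B protein and is by count the most abundant, since the other 23 genes together held between 44.4% and 46.6% of the histone counts in each library. Its normalized counts were 1093 and 961 in PANC-1 and 759 and 870 in PZT-2. The groups did not overlap, and the change was small (log2 fold change -0.33, SE 0.0981, adjusted p = 0.0476). The call was kept with RLE factors, with no filter, with at least 10 counts in all 4 libraries, with identical proteins summed and without PANC-1 replicate 2, and lost in the other 8 alternative fits of genes. Dropping PANC-1 replicate 1 raised the adjusted p to 0.1003, PZT-2 replicate 1 to 0.232 and PZT-2 replicate 2 to 0.0769.

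HIST2H2BF and HIST2H3D have a mean normalized count under 50 and are named here after their values were seen. HIST2H2BF (chromosome 1, 149782689 to 149812370), another H2B gene, had 7 counts in each PANC-1 library and 0 in each PZT-2 library. Set against a floor of 3 counts per library, it was at least 2.37-fold lower in PZT-2. Since it was tested only because of its PANC-1 counts, its adjusted p of 0.0195 in edgeR is no independent support for this. Of the 76-base windows of its open reading frame, 48.8% also occur in another listed histone gene, most often HIST2H2BE, and a second listed transcript of HIST2H2BF has no values, so the assignment of so few reads is uncertain. Dropping PZT-2 replicate 1 or 2 raised the adjusted p to 0.0656 or 0.0736.

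HIST1H2BD showed the opposite order to HIST1H2BK. Its normalized counts were 132 and 126 in PANC-1 and 151 and 141 in PZT-2, so both PZT-2 libraries were above both PANC-1 libraries. The difference missed the threshold (log2 fold change 0.19, SE 0.131, adjusted p = 0.344). HIST1H2BC had 18.0 and 21.7 in PANC-1 against 30.2 and 24.7 in PZT-2 (log2 fold change 0.46, SE 0.334, adjusted p = 0.358). HIST1H2BJ had 33.8 and 26.2 against 17.1 and 25.7 (log2 fold change -0.48, SE 0.359, adjusted p = 0.377). At these counts changes of this size could not be separated from the spread between libraries.

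**Figure D2:**
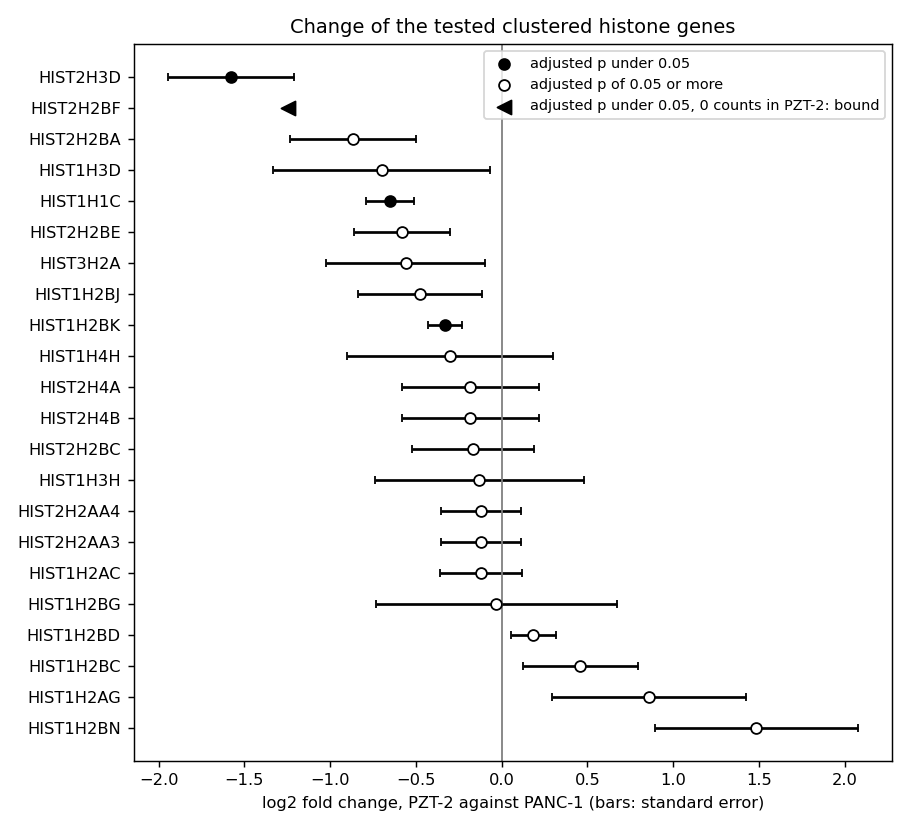
Fitted log2 fold change of PZT-2 against PANC-1 (horizontal axis) with its standard error for the 22 tested genes. Filled symbols mark the 4 genes with an adjusted p under 0.05, and HIST2H2BF, with 0 counts in PZT-2, is drawn at its bound of -1.25.

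None of the 5 tested H2A genes was called by edgeR or DESeq2, with none at an unadjusted p under 0.05, and their median log2 fold change was -0.12. HIST2H2AA3 and HIST2H2AA4 are copies whose open reading frames share each 76-base window, and the counts had been split evenly between them. Each had normalized counts of 84.4 and 59.6 in PANC-1 and 61.4 and 70.2 in PZT-2. The groups overlapped (log2 fold change -0.12, SE 0.235, adjusted p = 0.753). HIST1H2AC had 55.1 and 47.0 against 42.3 and 51.4, also overlapping (log2 fold change -0.12, SE 0.240, adjusted p = 0.759). HIST3H2A, the only HIST3 gene with values, and HIST1H2AG had mean levels of 6.25 and 2.88 TPM.

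HIST2H3D (chromosome 1, 149813225 to 149813693) encodes H3.2, a replication-dependent H3. Its normalized counts were 32.6 and 33.4 in PANC-1 and 13.1 and 8.90 in PZT-2. Both PZT-2 libraries lay well below both PANC-1 libraries, with a log2 fold change of -1.58 (SE 0.367, adjusted p = 0.0215). Dropping PZT-2 replicate 1 or 2 raised the adjusted p to 0.0611 or 0.122, and DESeq2 gave 0.0943. Its open reading frame shares 27.6% of its 76-base windows with another listed gene, most with HIST2H3A and HIST2H3C, which have no values, so reads of these copies may be among its counts.

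The other 2 H3 genes with values, HIST1H3D and HIST1H3H, encode the same protein as each other and were not called (adjusted p = 0.461 and 0.903). All 3 H4 genes with values encode one and the same protein, since H4 hardly varies. HIST2H4A and HIST2H4B, which again share each 76-base window, had normalized counts of 19.1 and 28.0 in PANC-1 and 16.1 and 25.7 in PZT-2. These values overlapped (log2 fold change -0.18, SE 0.3998, adjusted p = 0.781), and replicate 2 was above replicate 1 in both lines. HIST1H4H was likewise not called (adjusted p = 0.759).

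Summed by class, H1, H2B and H3 were lower in both PZT-2 libraries than in both PANC-1 libraries, while H2A and H4 overlapped. H1 is here HIST1H1C alone. The summed level of H3 was 17.7 and 19.3 TPM in PANC-1 and 9.71 and 7.56 TPM in PZT-2. HIST2H3D made up 13.0 and 14.2 TPM of this in PANC-1 and 5.75 and 3.75 TPM in PZT-2. Without HIST2H3D the H3 sum was 4.71 and 5.04 TPM in PANC-1 and 3.96 and 3.81 TPM in PZT-2. The summed level of H4 was 27.3 and 33.0 TPM against 22.9 and 32.2 TPM. The sum over H2B was 276 and 248 TPM against 228 and 236 TPM. Its order rested on HIST1H2BK, without which the H2B sum was 83.0 and 73.4 TPM in PANC-1 and 83.4 and 72.2 TPM in PZT-2, values that overlap. Over all 24 genes, normalized counts summed to 1967 and 1728 in PANC-1 and 1420 and 1568 in PZT-2, a log2 ratio of -0.31, and without HIST1H2BK to 874 and 767 against 661 and 697. These sums are given without a test, since the smallest p that an exact permutation of 2 against 2 libraries can give is 0.333.

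**Figure D3:**
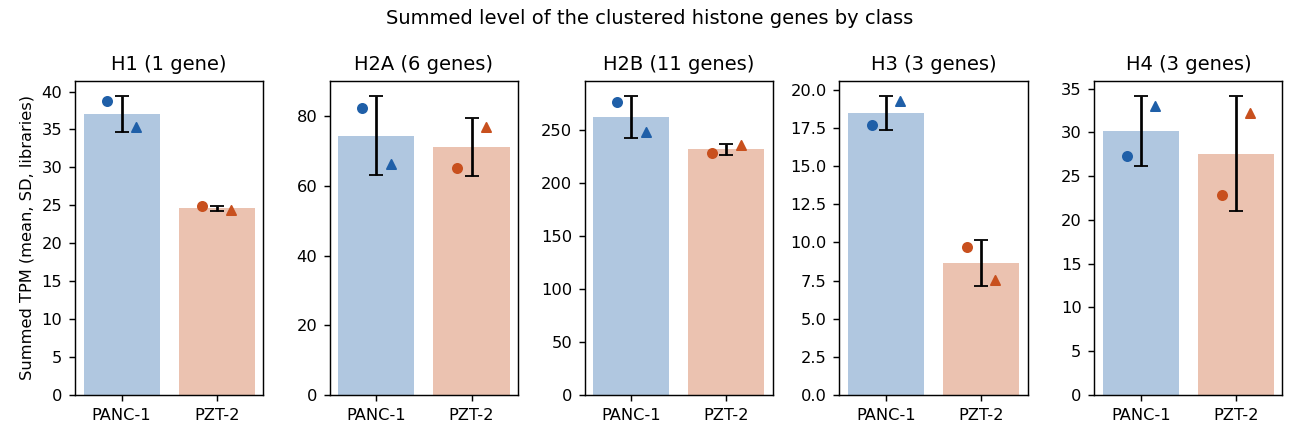
Summed TPM of the clustered histone genes of each class (vertical axes start at 0 and differ between panels), with bars for the mean of 2 libraries, error bars for the SD and symbols for the libraries. The PZT-2 libraries lie below the PANC-1 libraries for H1, H2B and H3 and overlap with them for H2A and H4, and those of H2B overlap too once HIST1H2BK is taken out.

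The transcript models behind the values differed in length. Of the 26 transcripts, 21 were between 374 and 582 bases long in the index, about the length of a coding sequence with a short stem-loop end, and 5 were longer than 600 bases. These 5 belong to HIST1H1C, HIST1H2BD, HIST1H2BK, HIST1H3D and HIST2H2BE. They carried 72.9% and 75.1% of the histone counts in PANC-1 and 70.4% and 73.2% in PZT-2. Per length these 5 made up 56.3% and 58.6% of the TPM in PANC-1 and 52.8% and 56.5% in PZT-2. The HIST1H1C transcript has 732 bases with an open reading frame of 639, so its length does not mark an extended end. It alone held 9.27% and 9.26% of the histone counts in PANC-1 and 7.72% and 6.88% in PZT-2. The longest, the 2223 bases of HIST2H2BE, runs on past a stem-loop in its GENCODE model for 1729 bases, and that model has a poly(A) signal near its end.

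HIST1H2BK and HIST1H2BD were measured with 2 transcripts each. The long form of HIST1H2BK, 863 bases and 365 bases longer than the short one, held between 96.6% and 99.0% of the gene's counts in each library. Its normalized counts were 1071 and 955 in PANC-1 and 731 and 850 in PZT-2. When each transcript was tested for itself this difference did not pass (log2 fold change -0.36, SE 0.112, edgeR adjusted p = 0.230). The short form had 21.4 and 9.99 against 26.1 and 17.7 (adjusted p = 0.845).

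For HIST1H2BD, the form of 824 bases is spliced and lacks the stem-loop printed above. It had normalized counts of 106 and 126 in PANC-1 and 116 and 141 in PZT-2. The form of 487 bases, which ends after the stem-loop, had 25.9 and 35.2 in replicate 1 of PANC-1 and PZT-2 and was listed at 0 in replicate 2 of both. Neither form was called between the lines (adjusted p = 0.876 and 0.975), and the short form followed the replicate number rather than the line.

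**Figure D4:**
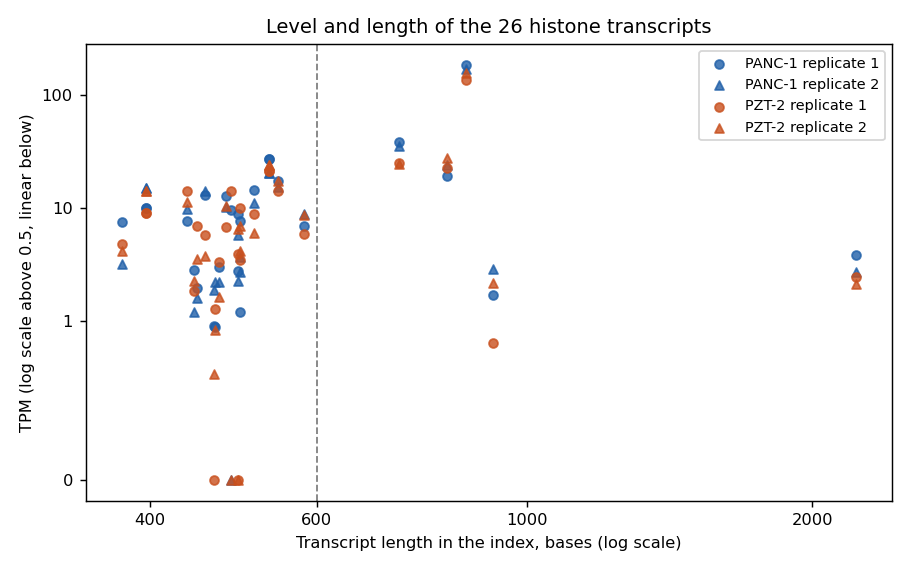
Level in TPM (vertical axis, log scale above 0.5) against length in the index (horizontal axis, log scale) of the 26 transcripts, with 4 symbols for the libraries of each. The dashed line marks 600 bases, and the form of HIST1H2BK with 863 bases is the highest in each library.

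Histone promoters share short motifs, and the region before the start site is shown for the 4 called genes. Windows from 250 bases before to 50 bases after the start site were taken from RefSeq (GRCh38.p14), and 22 of the 24 genes were matched. They were searched on both strands for CCAAT, the TATA box TATAAA, the octamer ATTTGCAT known from H2B promoters and AAACACA, a motif known from H1 promoters, and no matches overlap in the stretches printed. Each line below gives the 150 bases before the start site, 5′ to 3′ on the strand of the gene, with matches on either strand in capitals. All 4 genes are on the minus strand, at chr6:26056471-26056620 (HIST1H1C), chr6:27146859-27147008 (HIST1H2BK), chr1:149812371-149812520 (HIST2H2BF) and chr1:149813694-149813843 (HIST2H3D).
HIST1H1C: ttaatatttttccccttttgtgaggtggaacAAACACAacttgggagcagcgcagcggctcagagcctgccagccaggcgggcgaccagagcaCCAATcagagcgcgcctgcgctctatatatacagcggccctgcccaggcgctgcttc
HIST1H2BK: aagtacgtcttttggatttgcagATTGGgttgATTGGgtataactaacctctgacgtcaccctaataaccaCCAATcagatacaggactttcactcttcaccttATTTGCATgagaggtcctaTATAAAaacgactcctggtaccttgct
HIST2H2BF: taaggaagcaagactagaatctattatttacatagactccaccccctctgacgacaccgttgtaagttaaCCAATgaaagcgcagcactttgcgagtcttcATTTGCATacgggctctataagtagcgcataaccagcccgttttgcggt
HIST2H3D: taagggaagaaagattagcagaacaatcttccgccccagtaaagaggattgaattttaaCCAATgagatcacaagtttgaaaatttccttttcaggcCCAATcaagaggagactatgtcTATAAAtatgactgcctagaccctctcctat

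CCAAT was the only one of these motifs found before all 4 called genes. The octamer was present before both H2B genes, 46 bases before the start of HIST1H2BK and 49 before that of HIST2H2BF, and the H1 motif lies 119 bases before the start of HIST1H1C. CCAAT was found in 19 of the 22 windows of genes with values, against 39.7% of 27305 genes, and TATAAA in 15, against 14.0%. The octamer was found in 10, against 2.19%. Of the matched genes listed, it was in 14 of 18 H2B, 11 of 16 H2A and 1 of 12 H3 windows, and in none of H1 or H4. CCAAT was in all matched H1, H2A, H2B and H3 windows and in 3 of 13 H4 windows. These matches describe the windows and do not show that a factor binds there.

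Genes that make and process histone mRNA were followed as a list of 27. All 27 were tested, and 8 were called higher (29.6%, against 14.7% of all genes) and 3 lower (11.1%, against 13.7%). The median log2 fold change was -0.04. With PANC-1 replicate 1 dropped the calls were 7 and 7, with PANC-1 replicate 2 dropped 9 and 2, with PZT-2 replicate 1 dropped 3 and 1, and with PZT-2 replicate 2 dropped 3 and 0. NPAT, the coactivator that switches on histone genes when phosphorylated by cyclin E and CDK2, was lower, with normalized counts of 176 and 167 in PANC-1 and 119 and 95.9 in PZT-2 (log2 fold change -0.67, SE 0.153, edgeR adjusted p = 0.0198). Both PZT-2 libraries were below both PANC-1 libraries, but the call was lost when PZT-2 replicate 2 was dropped (0.121) and in DESeq2 (0.0716). CDK2 was higher, at 1055 and 1047 against 1412 and 1398 (log2 fold change 0.42, SE 0.0587, adjusted p = 0.00365).

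SLBP, the hairpin-binding protein, had normalized counts of 1259 and 1372 in PANC-1 and 1495 and 1640 in PZT-2. The groups did not overlap, and the value lay just outside the threshold (log2 fold change 0.25, SE 0.0764, adjusted p = 0.0519). It was called when PANC-1 replicate 2 was dropped (adjusted p = 0.0146). CASP8AP2, a protein of the histone locus body also known as FLASH, had 38.3 and 159 in PANC-1 and 117 and 148 in PZT-2. The PANC-1 libraries lay on both sides of the PZT-2 ones (log2 fold change 0.39, SE 0.528, adjusted p = 0.636), and the fold change was -0.27 without PANC-1 replicate 1 and 1.78 (adjusted p = 0.00117) without replicate 2.

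Genes of the machinery that binds and cuts histone pre-mRNA were called in both directions. LSM11, a protein of the U7 snRNP that pairs with histone pre-mRNA, had 111 and 119 against 184 and 164 (log2 fold change 0.59, adjusted p = 0.0208), a call lost when PZT-2 replicate 1 (0.127) or 2 (0.0702) was dropped and in DESeq2 (0.112). CPSF3, the endonuclease, had 780 and 852 against 1163 and 1094 (log2 fold change 0.47, adjusted p = 0.00605), and the scaffold SYMPK had 999 and 883 against 1267 and 1336 (log2 fold change 0.47, adjusted p = 0.00719). Dropping PZT-2 replicate 1 ended the call of CPSF3 (0.0518), and dropping replicate 2 that of SYMPK (0.0671). NCBP2, a subunit of the cap-binding complex, was the most clearly changed gene of the list by its adjusted p, at 1394 and 1413 against 2108 and 2181 (log2 fold change 0.61, SE 0.0580, adjusted p = 0.00101). NCBP1, the other subunit of that complex and named after its values were seen, was lower, at 787 and 944 against 672 and 600 (log2 fold change -0.45, adjusted p = 0.0255). That call was lost when PANC-1 replicate 2 (0.0516) or PZT-2 replicate 1 (0.0644) or 2 (0.157) was dropped. SNRPB, a core protein of spliceosomal and U7 particles, was lower at 6157 and 5807 against 4939 and 5224 (log2 fold change -0.24, adjusted p = 0.0253), a call lost when PZT-2 replicate 1 (0.185) or 2 (0.0963) was dropped.

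Of the genes that degrade histone mRNA, 17 of 21 listed symbols had values, 4 of the listed symbols being older names of others. Of the 17, 1 was called higher (5.88%, against 14.7% of all genes) and 2 lower (11.8%, against 13.7%), with a median of -0.07. Dropping PANC-1 replicate 1 gave 1 and 4. All 3 were subunits of the LSM ring that binds uridylated ends. LSM3 was higher, at 486 and 650 against 930 and 990 (log2 fold change 0.75, adjusted p = 0.00821). LSM4, at 3065 and 2967 against 2321 and 2300, and LSM2, at 1152 and 1083 against 868 and 786, were lower (log2 fold changes -0.38 and -0.43, adjusted p = 0.00386 and 0.00847). The ring's subunits therefore did not move one way, and without PZT-2 replicate 2 none of the 3 was called (adjusted p = 0.0616, 0.0526 and 0.0769).

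**Figure D5:**
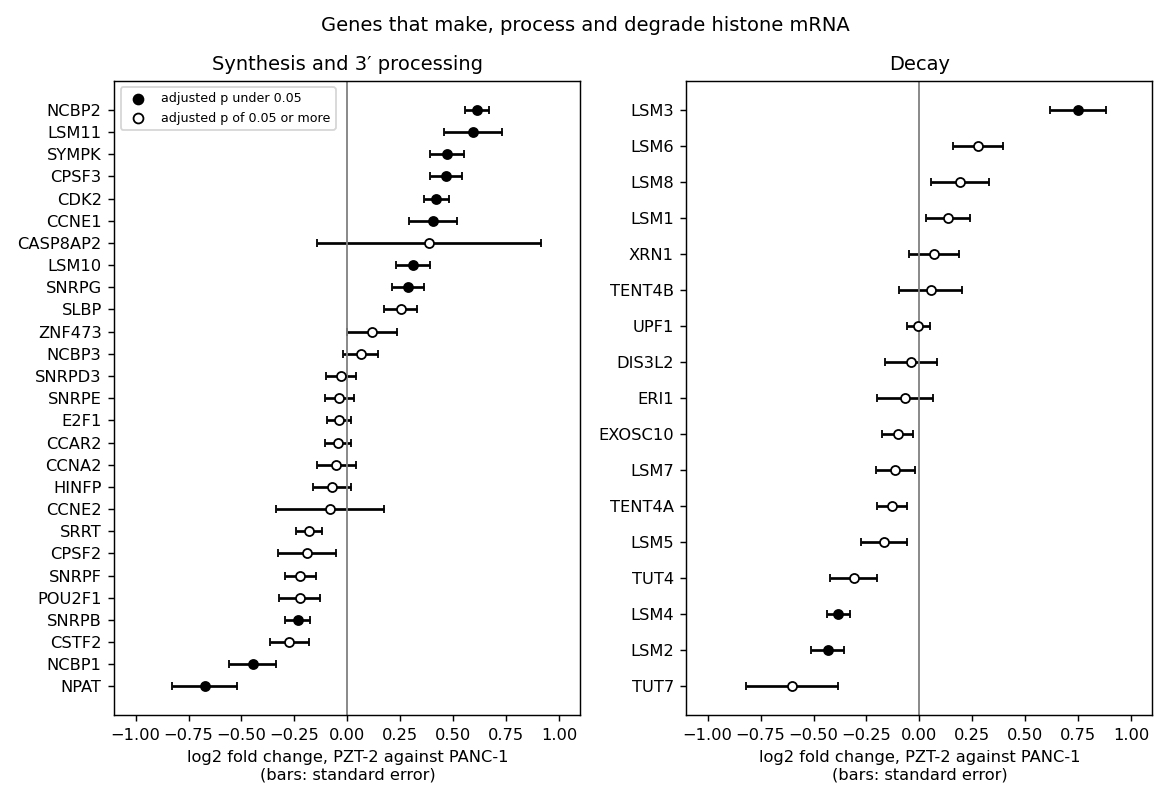
Log2 fold change of PZT-2 against PANC-1 (horizontal axes) with its standard error for 27 genes of histone mRNA synthesis and processing (left) and 17 of its decay (right). Filled symbols mark the 11 and 3 genes with an adjusted p under 0.05, which lie on both sides of 0 in each panel.

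Histone chaperones and importins, which carry new histones to DNA, had 2 genes called higher and 4 lower of 25 tested, with a median of 0.04. These calls were 1 and 7 with PANC-1 replicate 1 dropped, 7 and 4 with PANC-1 replicate 2 dropped, 1 and 1 with PZT-2 replicate 1 dropped and 0 and 0 with PZT-2 replicate 2 dropped. Among the 12 replacement histone genes outside the clusters, 2 were called higher (16.7%, against 14.7% of all genes) and 3 lower (25.0%, against 13.7%). Their median log2 fold change was -0.04. H2AFZ and H2AFV were among the 3 called lower. Dropping PANC-1 replicate 1 gave 3 and 5, PZT-2 replicate 1 gave 1 and 2, and PZT-2 replicate 2 gave 1 and 3.

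Since clustered histone genes are transcribed in S phase, genes of the cell cycle were set beside them. Of 16 S phase genes, 3 were called higher (18.75%, against 14.7% of all genes) and 3 lower (18.75%, against 13.7%). Their median log2 fold change was 0.07. Of 12 G2/M genes, 6 were called lower and none higher by edgeR or DESeq2, with none higher at an unadjusted p under 0.05 (median -0.29). In S phase the calls became 3 and 5 with PANC-1 replicate 1 dropped, 5 and 4 with PANC-1 replicate 2 dropped, 1 and 1 with PZT-2 replicate 1 dropped and 0 and 0 with PZT-2 replicate 2 dropped. In G2/M, 9 were called lower with PANC-1 replicate 1 dropped and 3 with PZT-2 replicate 2 dropped. The part of cell cycle composition in the histone values was not tested.

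The genes that lie between the histone genes on chromosome 6 were compared with them. The HIST1 span runs over 2168 kb (25726063 to 27893891), and 19 other genes in it had values. Of these, 5 were called higher in PZT-2 and none lower by edgeR or DESeq2, with none lower at an unadjusted p under 0.05, and their median log2 fold change was 0.21. All 5, named after their values were seen, are butyrophilin genes or a pseudogene of that family (BTN3A1, BTN2A1, BTN2A2, BTN3A2 and BTN2A3P), with 3 genes of the span called higher and 1 lower when PZT-2 replicate 1 was dropped, 2 higher when PZT-2 replicate 2 was dropped, and 5 higher and 1 lower when PANC-1 replicate 1 was dropped. The 12 tested HIST1 genes had a median of -0.12 and 2 calls, both lower (16.7%, against 13.7% of all genes tested). Of the 19 other genes, 26.3% were called higher, against 14.7% of all genes tested. No other gene with values lies in the HIST2 span of 105 kb. There 2 of 8 tested histone genes were called lower, against 13.7% of all genes tested, with a median of -0.18. HIST2H2BF, 1 of these 2, reached the count minimum only in PANC-1, so its call is in part fixed by the filter. The 8 genes also include 2 pairs with identical counts (HIST2H2AA3 with HIST2H2AA4, HIST2H4A with HIST2H4B). The share is therefore given as a description only. HIST2H2BA, the ninth tested HIST2 gene, lies elsewhere on chromosome 1 (121107175 to 121117292).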

How the data were processed

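Libraries of 2 PANC-1 and 2 PZT-2 samples were compared. The authors trimmed paired reads of 76 bases with Trim Galore 0.4.1 and estimated transcript abundance with kallisto 0.43.0 on a RefSeq index whose release is not given in the sources used here. The labels name hg19. The deposited estimated counts were exported from sleuth 0.29.0 with 1 scaling factor per library (0.935 to 1.16), which was undone. The design took the counts as deposited, so that form is an alternative. After this 45.2% to 46.5% of low values were whole within 0.01, against 0.815% to 2.41% before. The TPM column carries a factor too, so this signal, as deposited by the authors, was rescaled to 1 common sum per library. The authors' own comparison columns (fold changes, p-values and q-values) were not used. The other deposited columns are identifiers and effective lengths.

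Estimated counts were rounded, summed per gene and tested with edgeR 4.0.16 (R 4.3.3; TMM, quasi-likelihood, at least 5 counts in at least 2 of 4 libraries, Benjamini-Hochberg over 15101 genes). Normalized counts are scaled to the mean effective library size, and SE belongs to the log2 fold change. The script was tested on simulated data. Members and lists were chosen with earlier results of these data known. Genes were named where called at a mean of 50 normalized counts or more, among the 10 highest by TPM, measured with several transcripts, among the 10 lowest adjusted p of the synthesis, processing and decay lists (with SLBP, NPAT and CASP8AP2 in any case), or targeted (H2AFZ, H2AFV). Coordinates are from RefSeq on GRCh38.p14, stem-loops from GENCODE 29, neither being the authors' index. Alternatives were RLE factors, DESeq2 1.42.0, other filters, limma-trend (limma 3.58.1) on log2(TPM + 1) and log2(TPM + 0.1), the counts as deposited, a replicate block, each library left out, identical proteins summed and each transcript tested for itself.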

Additional observations from a re-analysis of the deposited data

How the results depend on the processing

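The 4 calls among the clustered histone genes depended on the processing. With at least 10 counts in all 4 libraries 2 were called lower, since HIST2H3D and HIST2H2BF were no longer tested, and DESeq2 called 0 lower (4 lower at an unadjusted p under 0.05, HIST2H2BF having no adjusted p). Both limma-trend fits called 3 lower and 1 higher, the latter HIST1H2BN, named after its values were seen (adjusted p = 0.0436 and 0.0410, against 0.112), which reached the count minimum only in PZT-2, where it is high. With each transcript tested for itself 45 transcripts were called in all and 0 of these genes lower, with 3 lower at an unadjusted p under 0.05. With each library left out, genes called ranged from 1747 to 4510 (4285 in all libraries), clustered histone genes called lower from 0 to 4 and higher from 0 to 0, and the median log2 fold change from -0.46 to -0.065. The lowest counts came without a PZT-2 library, where that line has 1 library assumed to vary like the other line. Fold changes changed sign with a library left out for HIST1H2AC (-0.27 to 0.014), HIST2H2AA3 and HIST2H2AA4 (-0.37 to 0.14), HIST2H4A and HIST2H4B (-0.56 to 0.12) and CASP8AP2 (-0.27 to 1.78), and also for HIST1H2BG (-0.58 to 0.70), HIST1H3H (-0.72 to 0.29), HIST1H4H (-0.85 to 0.45) and HIST2H2BC (-0.49 to 0.095), none of them called in the fit of all libraries.

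With the replicate number as a block (replicate block), 3 clustered histone genes were called lower, HIST1H2BK being lost (adjusted p = 0.0814), SNRPB was lost (0.0504), SLBP was called (0.0420) and 3689 genes were called in all. HIST1H2BG, at -0.031 in the fit of all libraries, was at 0.0042 with the block and at 0.058 and 0.12 in the limma-trend fits. Replicate numbers did not deviate together between the lines (correlation -0.0241), so they were not taken as pairs. RLE factors, no filter and identical proteins summed left 4 called lower, the counts as deposited 3, and the median stayed between -0.33 and -0.11 under these and the other fits of all libraries. Of the 24 genes, 19 had a mean normalized count under 50, which limits what change could be detected.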
